A study of Mus musculus with 16 samples.

Results

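Acute phase proteins are plasma proteins whose output by the liver shifts during infection, injury or inflammation, and 10 of their genes are described here: Saa1, Saa2, Saa3, Saa4, Orm1, Orm2, Hp, Hpx, Lcn2 and Crp. They were chosen by name, by an exact match of the gene symbol. All 10 were present among the 25803 genes of the joined count tables, and all 10 were among the 14488 genes with enough counts to be tested. The RNA came from livers of male mice kept on a high-fat diet (HFD) for 12 weeks and was sequenced in bulk after selection of polyadenylated transcripts. The 4 groups of 4 libraries were control mice after a 16 h fast, mice with a liver knockout of Cpt1a (LKO) after the same fast, control mice given food for 6 h after that fast, and LKO mice refed in the same way. Cpt1a encodes carnitine palmitoyltransferase 1A, the gatekeeper of fatty acid entry into mitochondria. The control mice are called control in the sample titles and WT in the study's design text. How the deletion was made, which promoter drove it, and the strain and age of the mice are not given in the sources used here.

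In the acute phase response, interleukin-1 and tumour necrosis factor act on hepatocytes through NF-kB and C/EBP factors, and interleukin-6 acts through gp130 and STAT3. The response raises the positive acute phase proteins, such as serum amyloid A, orosomucoid and haptoglobin, and lowers negative ones such as albumin and transthyretin. Hepatocytes also make many of these proteins at rest, and Saa4 is known as the constitutive member of the serum amyloid A family. In mice, Crp is a weak acute phase gene, unlike its human counterpart.

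The libraries, named S40 to S55 in the tables, held 14721601 to 24618230 counts each, and levels are given as CPM, counts scaled to a common library total with TMM factors. Cpt1a was at 487 ± 83.2 CPM (SD, n = 4) in fasted control and 100.5 ± 17.3 CPM in fasted LKO livers, and at 457 ± 137 and 54.2 ± 16.6 CPM in the refed groups, with no overlap between genotypes in either state. The hepatocyte marker Alb ran from 33760 to 62960 CPM over the 16 libraries, whereas the neutrophil gene Ly6g had 3 counts and the adipocyte gene Adipoq 17 counts in all 16 together. The titles number the samples but do not say that each is a separate animal, so p-values measure the spread between these samples. In bulk liver RNA, fewer cells of a type and less RNA per cell cannot be told apart.

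Haptoglobin and hemopexin RNAs dominated the group. Together the 10 genes took 0.846% to 1.71% of all counts of a library, and Hp and Hpx made up 84.3% to 91.9% of that. On the scale of mean CPM per kb of the gene length in the tables, Hp stood at 3913, Hpx at 3101 and Orm1 at 545, followed by Saa4 at 166, Crp at 89.9, Saa1 at 88.7, Saa2 at 34.1, Orm2 at 32.6, Lcn2 at 21.1 and Saa3 at 4.83. Crp and Saa1, and Saa2 and Orm2, are neighbours in the order by table length whose means differ by less than the SD of Saa1 or Saa2 within any group. The order depended on the length used. For Saa1 the tables give it 2478 bases, close to its whole gene span of 2484 bases, while its GENCODE M21 transcript has 609 bases. Per kb of the GENCODE M21 transcript, Hp, Hpx and Orm1 stayed in front, followed by Saa1 at 361 CPM, Crp at 183, Saa4 at 166, Saa2 at 142, Lcn2 at 60.4, Orm2 at 32.6 and Saa3 at 22.7. On that scale Saa1 and Crp passed Saa4, and Saa2 and Lcn2 lay above Orm2. The lowest count of any of the 10 genes in a library was 73, for Saa3, so none was near the detection limit.

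**Figure D1:**
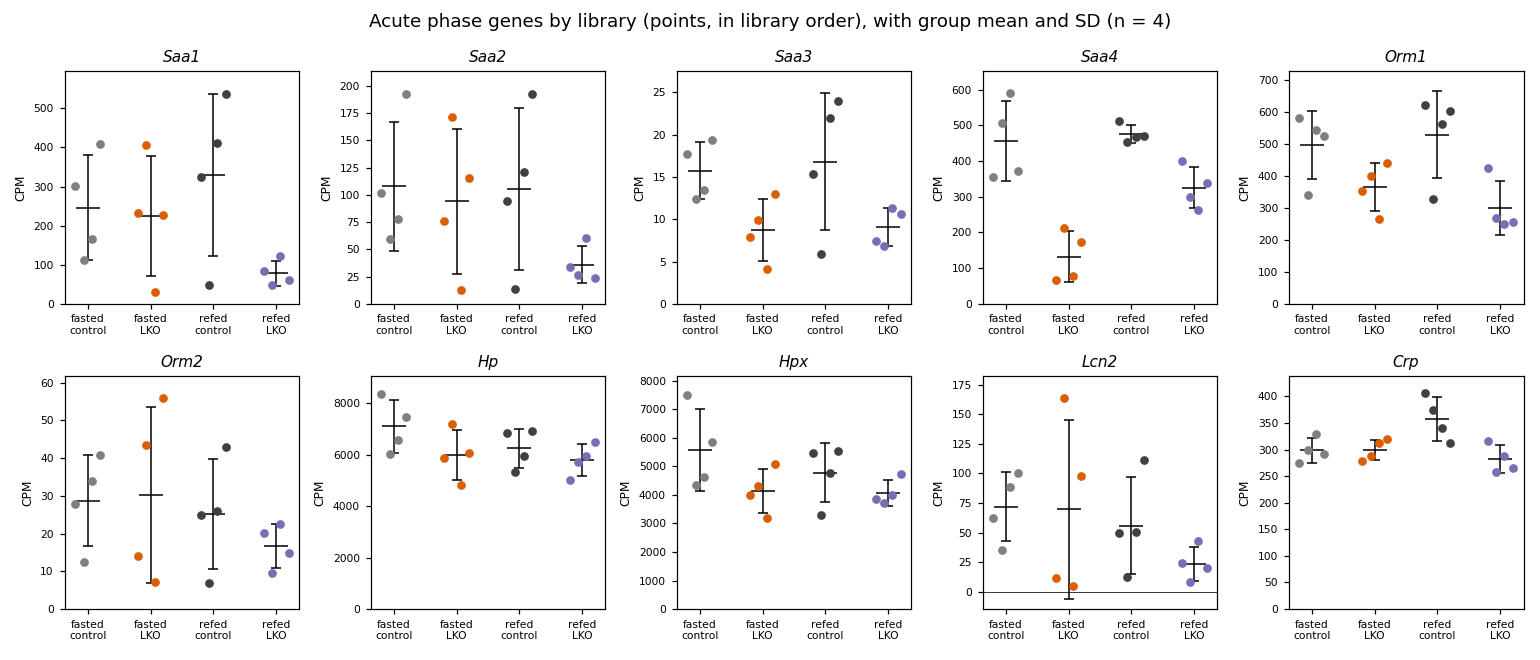
CPM of each acute phase gene in each library; points are libraries in the order of their names, the long tick is the group mean and the bars are the SD (n = 4, linear axes that include 0). For Saa4 all fasted LKO points (65.3 to 214) lie under all fasted control points (356 to 589), whereas the points of Saa1, Saa2, Orm2 and Lcn2 are widely spread within groups.

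Of these genes, 1 differed between the genotypes in the fasted state. Saa4 was lower in fasted LKO livers, at 29.0% of the control mean, while the other 9 genes missed the threshold of an adjusted p of 0.05 in the quasi-likelihood test of edgeR, with Benjamini-Hochberg adjusted p-values over all genes tested. In that comparison 12.2% of the 14488 genes were called, 5.75% higher and 6.48% lower. DESeq2 and limma-voom also called 1 of the 10, Saa4, beside 14% and 12.5% of all genes, and 3 of the 10 had an unadjusted p under 0.05, beside 26.7% of all genes. The fitted change was below 0 for 8 of the 10, with a median log2 fold change of -0.22, beside 47.5% of all genes below 0 and a median of 0.02 over all genes. Saa4 was also the 1 member whose groups did not overlap, beside 8.57% of all genes with no overlap and lower values in LKO livers.

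In the refed state, all 10 fitted changes were below 0 in LKO livers, with a median of -0.70 beside -0.01 over all genes, of which 52.2% were below 0. Many members varied together, so their signs, here and in the fasted state, are not separate observations. After each group's mean was removed, Pearson's r was 0.98 for Saa1 and Saa2 and 0.84 for Hp and Hpx, but -0.46 for Hp and Crp. None of the 10 was called by edgeR, beside a background where 3.63% of all genes were called, 2.28% higher and 1.35% lower. At an unadjusted p under 0.05 the count was 5 of 10 (Saa1, Saa2, Saa3, Orm1 and Crp), beside 18.4% of all genes. DESeq2 called 2, Orm1 and Crp, beside 5.54% of all genes, and limma-voom called 0, beside 3.56%. Without library S49, the refed control library that was lowest of its group for 9 of the 10 genes, edgeR called 3 (Saa1, Saa3 and Orm1). Saa4 was the only member whose refed groups did not overlap, beside 5.03% of all genes with no overlap and lower values in LKO livers.

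In control livers, refeeding left the 10 genes under the threshold, and in LKO livers it raised Saa4. In controls edgeR called 0 of 10 genes and DESeq2 called 1, Crp, beside 18.8% of all genes, while limma-voom called 0, beside 16.2%. Crp was also the 1 gene of the 10 at an unadjusted p under 0.05, a smaller share than the 30% of all genes. The edgeR background was 15.4% of all genes called, 7.79% higher and 7.65% lower, and none of the 10 had groups without overlap, beside 20.4% of all genes. In LKO livers edgeR called 1 of 10, Saa4, which rose, beside 18.1% of all genes called, 9.28% higher and 8.78% lower. DESeq2 and limma-voom called 1 as well, beside 17.7% and 18.3% of all genes, and 2 of the 10 had an unadjusted p under 0.05, beside 31%. Its groups did not overlap, beside 10.6% of all genes with no overlap and higher values on refeeding. For the interaction, which tests whether the LKO effect differed between refed and fasted livers, edgeR called none of the 10, beside 0.538% of all genes, 0.311% higher and 0.228% lower. In that test 2 of the 10, Saa4 and Crp, had an unadjusted p under 0.05, a share near the 16.5% of all genes. DESeq2 called 1 (Saa4), beside 3.53% of all genes, and limma-voom 0, beside 0.552%. These comparisons share libraries in pairs and are therefore not independent of each other.

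**Figure D2:**
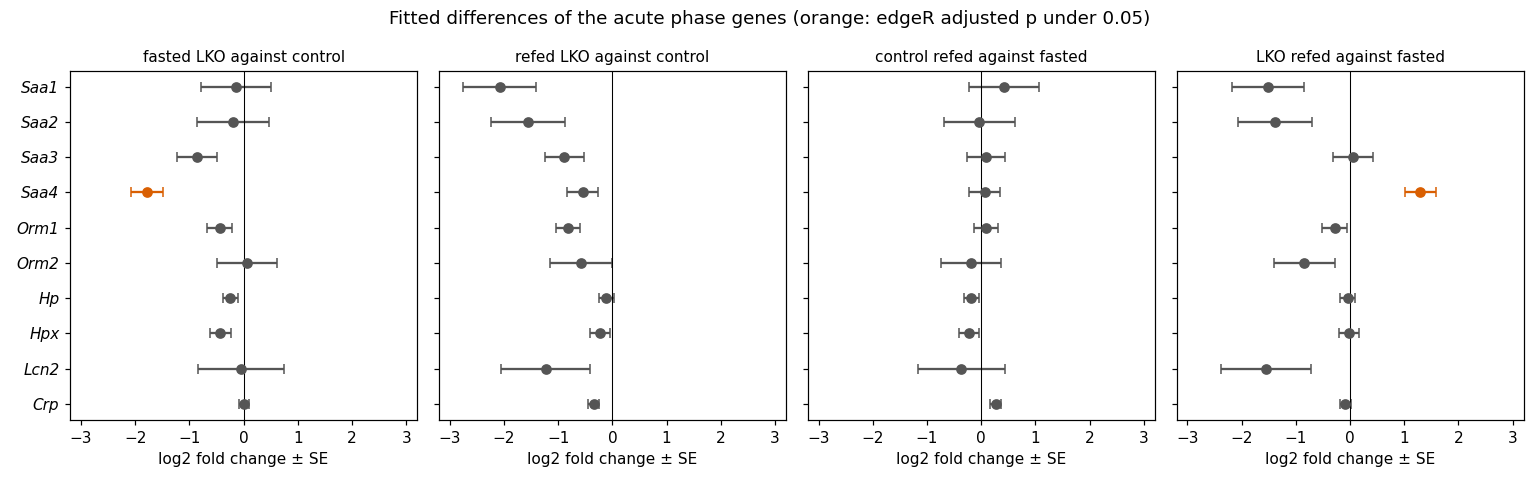
Fitted log2 fold change with its standard error (SE) for each acute phase gene in the 4 comparisons of groups, from edgeR; orange marks an adjusted p under 0.05. Saa4 is orange in fasted LKO against control (-1.78) and in LKO refed against fasted (1.30), and every point of the refed LKO comparison lies left of 0.

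Saa4 encodes the serum amyloid A protein that circulates on high-density lipoprotein without an inflammatory stimulus. The files place it at 7:46377422-46382027 on the minus strand (build mm39, per the submitters' processing notes). In fasted control libraries S40 to S43, Saa4 was at 356, 507, 589 and 371 CPM. In fasted LKO libraries S44 to S47 it was at 65.3, 214, 78.6 and 172 CPM. The highest LKO library therefore lay below the lowest control library, and the LKO values fell into a lower and a higher pair. The log2 fold change was -1.78 (SE 0.30, edgeR adjusted p = 0.00137), and Saa4 was called in 15 of 15 alternative settings or left-out libraries. In refed control libraries S48 to S51 the values were 513, 454, 468 and 469 CPM. In refed LKO libraries S52 to S55 they were 399, 300.0, 263 and 338 CPM. Again every LKO value was under every control value, but the gap was small, with refed LKO livers at 68.3% of the control mean. That difference was -0.55 (SE 0.29, edgeR adjusted p = 0.331), and 0.0409 when the 2 refed groups were fitted alone.

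On refeeding, Saa4 in LKO livers rose from 132 ± 72.0 to 325 ± 58.1 CPM (SD, n = 4), a log2 fold change of 1.30 (SE 0.29, edgeR adjusted p = 0.00568), called in 15 of 15 alternatives. In control livers it was 456 ± 112 CPM fasted and 476 ± 25.6 CPM refed, a change of 0.06 (SE 0.29, edgeR adjusted p = 0.909). The interaction of Saa4 was 1.23 (SE 0.41), and it missed the threshold (edgeR adjusted p = 0.148). It was called by DESeq2 (adjusted p = 0.047) and by edgeR without the fasted LKO library S45 (1.58, adjusted p = 0.047). The summed level of the 10 hepatocyte markers listed for this study was also lower in fasted LKO than in fasted control livers, at 62290 to 71550 CPM against 74040 to 81730 CPM. Most of that sum was Alb, and the other 9 markers together overlapped, at 25390 to 29970 CPM in LKO and 27740 to 29920 CPM in control livers. Of the 10 markers, 3 were called lower (Ttr, F2 and Asgr1) and 0 higher, beside 6.48% of all genes lower and 5.75% higher. With 1 library left out the count was 0 to 3 (0 without S44 or S46). Alb, Ttr, Apoa1 and Serpina1a also belong to the acute phase lists below, so a call of Ttr there is the same result. The part of the lower marker sum in the Saa4 result was not tested.

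The 4 serum amyloid A genes lie side by side on chromosome 7, from the start of Saa3 at 46361422 to the end of Saa2 at 46403737. Saa1 and Saa2 encode the inducible proteins secreted by hepatocytes, and Saa3 a form made in many tissues. RefSeq windows of the 250 bases before the transcription start (build GRCm38.p6) were at hand for 8 of the 10 genes, and those of Orm1 and Hp were not used here. Saa1 and Saa2 are shown because their levels moved together, and Orm2 because it moved with them from another chromosome. Saa4 is shown because it lies between genes it did not follow. Lcn2 and Saa3, not shown, also moved with Saa2 (Pearson's r over the 16 libraries 0.88 and 0.84, beside 0.89 for Orm2). Capitals mark a match to the C/EBP motif TTNNGNAAT on either strand. The windows of Lcn2 and Saa3 held no match to it.
Saa1: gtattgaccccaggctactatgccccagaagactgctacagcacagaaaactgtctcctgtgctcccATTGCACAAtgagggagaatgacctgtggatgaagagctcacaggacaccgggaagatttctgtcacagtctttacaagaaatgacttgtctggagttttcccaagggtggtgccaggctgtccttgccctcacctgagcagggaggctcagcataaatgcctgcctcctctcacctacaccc
Saa2: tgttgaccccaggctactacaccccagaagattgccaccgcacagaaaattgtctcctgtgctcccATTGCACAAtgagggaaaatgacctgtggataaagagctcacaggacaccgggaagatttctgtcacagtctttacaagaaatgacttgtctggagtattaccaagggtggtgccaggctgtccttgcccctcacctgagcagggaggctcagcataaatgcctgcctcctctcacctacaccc
Orm2: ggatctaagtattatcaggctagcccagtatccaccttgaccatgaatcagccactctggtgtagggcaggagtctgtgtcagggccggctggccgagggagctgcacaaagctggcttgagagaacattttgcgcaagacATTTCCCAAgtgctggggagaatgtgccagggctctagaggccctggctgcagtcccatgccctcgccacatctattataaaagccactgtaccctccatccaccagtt
Saa4: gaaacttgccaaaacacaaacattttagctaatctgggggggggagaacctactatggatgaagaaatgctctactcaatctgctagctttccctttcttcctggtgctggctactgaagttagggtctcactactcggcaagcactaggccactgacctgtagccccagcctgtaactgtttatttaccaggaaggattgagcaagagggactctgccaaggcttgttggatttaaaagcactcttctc
The windows are chr7:46742981-46743230 (minus strand), chr7:46751583-46751832 (plus), chr4:63362199-63362448 (plus) and chr7:46732604-46732853 (minus). The Saa1 and Saa2 windows had 238 identical positions over 251 aligned columns (94.8%), whereas Saa1 and Saa4 were identical at 46.3% and Saa1 and Saa3 at 48.2%.

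The C/EBP letters occurred in 4 of the 8 windows, beside 10.2% of 32851 RefSeq windows of the same length. In Saa1 and Saa2 the match was ATTGCACAA, starting 183 and 184 bases before the start site. Their windows are 94.8% identical, so these matches are not separate observations in the count of 4. In Orm2 it was ATTTCCCAA at 109 bases, and in Crp TTAGGAAAT at 78 bases. The glucocorticoid motif ACANNNTGT was found in 1 window, that of Lcn2 (ACAGAATGT at 152 bases), beside 5.84% of all windows. The STAT motif TTCNNNGAA, an NF-kB motif and an HNF1 motif had no match in the 8 windows, beside 7.02%, 1.41% and 0.0609% of all windows. None of these motifs shares its match with another motif in these windows. The Saa4 window held no match to any motif searched.

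Saa1 (7:46389921-46392404, minus strand) spread over a 17.3-fold range among the 16 libraries. Fasted control libraries had 300.2, 111, 164 and 409 CPM, and fasted LKO libraries 232, 407, 31.1 and 227 CPM. Refed control libraries had 325, 48.4, 412 and 536 CPM, and refed LKO libraries 82.6, 48.7, 121 and 60.3 CPM. All 4 refed LKO values were low, and they overlapped the refed controls only through library S49. The refed difference was -2.08 (SE 0.67, edgeR adjusted p = 0.0978), a mean of 23.7% of control, and -2.44 (adjusted p = 0.0366) without S49. Fasted LKO livers differed from controls by -0.14 (SE 0.65, edgeR adjusted p = 0.923). The refed minus fasted difference of Saa1 was -1.52 in LKO livers (SE 0.66, edgeR adjusted p = 0.128), which was called without library S46 (-1.88, adjusted p = 0.0375), and 0.42 in control livers (SE 0.65, edgeR adjusted p = 0.704). The interaction of -1.94 had an SE of 0.92 and an edgeR adjusted p of 0.306.

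Saa2 (7:46401214-46403737, plus strand) repeated the pattern of Saa1 at a lower level. It was at 102, 59.5, 77.5 and 193 CPM in fasted control, and 76.2, 172, 12.8 and 115 CPM in fasted LKO libraries. Refed values were 94.3, 13.5, 121 and 193 CPM in controls and 33.6, 26.1, 60.2 and 24.0 CPM in LKO livers. The lowest values of the whole set belonged to S46 and S49, 1 in each genotype. The refed difference was -1.55 (SE 0.68, edgeR adjusted p = 0.23), and the fasted difference was -0.20 (SE 0.66, edgeR adjusted p = 0.886). Saa1 and Saa2 transcripts are identical at 93.9% of aligned positions in GENCODE M21, with an identical run of 99 bases, so the division of counts between them is uncertain. Pearson's r of Saa2 with Saa1 over the 16 libraries was 0.97, and it was 0.19 with Saa4.

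Saa3 (7:46361422-46365124, minus strand) was the scarcest of the 10, at 4.09 to 24.0 CPM. Fasted control libraries had 17.7, 12.4, 13.5 and 19.4 CPM, and fasted LKO libraries 7.94, 9.90, 4.09 and 12.9 CPM. Only the highest LKO library, S47, passed the lowest control library. The fasted difference was -0.86 (SE 0.36, edgeR adjusted p = 0.136), with means of 8.71 ± 3.70 and 15.7 ± 3.33 CPM (SD, n = 4). Refed control libraries had 15.3, 5.95, 22 and 24.0 CPM and refed LKO libraries 7.42, 6.80, 11.3 and 10.7 CPM. Here S49 was the 1 control library below the LKO libraries. The difference was -0.89 (SE 0.36, edgeR adjusted p = 0.186), and -1.17 (adjusted p = 0.0401) without S49. Its refed minus fasted differences were 0.09 in controls and 0.06 in LKO livers on the log2 scale (SE 0.35 and 0.37), neither called.

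The orosomucoids, or alpha-1-acid glycoproteins, and lipocalin 2 belong to the lipocalin family of carriers of small lipophilic molecules. Orm1 (4:63262797-63266400, plus strand) was at 580.5, 339.9, 543 and 524 CPM in fasted control and 354, 401, 266 and 440.1 CPM in fasted LKO libraries. Among refed libraries, controls had 622, 328, 562 and 604 CPM, and LKO livers 425, 269, 249 and 256 CPM. The refed groups overlapped because 1 control library, S49, was low and 1 LKO library, S52, was high. The refed difference was -0.82 (SE 0.23, edgeR adjusted p = 0.0557), a mean of 56.7% of control. It passed the threshold in 4 of 15 alternatives: by DESeq2 (adjusted p = 0.0103), with no filter on low counts (0.0464), without S49 (0.0186) and without S52 (0.0207). The fasted difference was -0.44 (SE 0.23, edgeR adjusted p = 0.223). The refed minus fasted difference of Orm1 was 0.09 in control and -0.28 in LKO livers, with an SE of 0.23 in each, and neither was called.

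Orm2 (4:63280686-63284115, plus strand) ran from 12.4 to 40.8 CPM in controls and from 7.06 to 55.8 CPM in LKO livers after the fast, and from 7.01 to 42.8 CPM and 9.48 to 22.6 CPM after refeeding. Every pair of groups overlapped. Its differences were 0.07 fasted and -0.58 refed, with an SE of 0.56 and 0.57 and edgeR adjusted p-values of 0.959 and 0.64. Orm1 and Orm2 transcripts are identical at 91% of positions and each at 86.1% or 88% with Orm3, the gene between them, so counts of the 3 genes may be shared out unevenly. Orm3 was at 0.392 to 21.1 CPM and was called in none of the 5 edgeR tests. Its refed difference was -1.84 (SE 0.79, edgeR adjusted p = 0.216).

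Lcn2 (2:32274645-32278264, minus strand) encodes lipocalin 2, which binds bacterial siderophores and so withholds iron from microbes. It varied more than any other member, 35.1-fold over the 16 libraries. Fasted control libraries had 62.6, 35.3, 88.7 and 100.4 CPM, while fasted LKO libraries had 12.0, 163, 4.65 and 98.1 CPM. The fasted LKO group thus held both the highest and the lowest values of all 16 libraries. Refed control libraries had 49.5, 12.2, 50.2 and 111 CPM, and refed LKO libraries 24.0, 8.31, 42.9 and 19.8 CPM. The refed difference was -1.23 (SE 0.82, edgeR adjusted p = 0.456) and the fasted difference -0.05 (SE 0.80, edgeR adjusted p = 0.98). These are the largest SEs among the 10 genes, and they limit what could be detected for Lcn2.

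Haptoglobin binds free hemoglobin and hemopexin binds free heme, and both carry their load to receptors for uptake. Hp (8:110301760-110305804, minus strand) was at 8363, 6019, 6573 and 7476 CPM in fasted control and 5871, 7189, 4806 and 6070.0 CPM in fasted LKO libraries. In the refed state it was at 6834, 5319, 5946 and 6903 CPM in control and 5004, 5726, 5949 and 6498 CPM in LKO libraries. The groups overlapped in both states. The differences were -0.25 fasted (SE 0.14, edgeR adjusted p = 0.266) and -0.11 refed (SE 0.14, edgeR adjusted p = 0.733).

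Hpx (7:105240820-105249344, minus strand) was at 7492, 4334, 4646 and 5861 CPM in fasted control and 3997, 4307, 3198 and 5073 CPM in fasted LKO libraries. Its fasted difference was -0.43 (SE 0.19, edgeR adjusted p = 0.157), with an unadjusted p of 0.0374. In the refed groups Hpx ran from 3312 to 5555 CPM in controls and from 3719 to 4744 CPM in LKO livers, a difference of -0.23 (SE 0.19, edgeR adjusted p = 0.571). The refed minus fasted difference was -0.19 in control and -0.05 in LKO livers for Hp, and -0.22 and -0.02 for Hpx, none of them called. The precision of this pair was the best of the group after Crp, and both had at least 56867 counts in every library.

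Crp (1:172525622-172660598, plus strand) encodes C-reactive protein, a pentraxin that binds phosphocholine on microbes and damaged cells. It was the steadiest member, with a 1.57-fold range over the 16 libraries. Fasted control libraries had 275, 299, 329 and 291 CPM and fasted LKO libraries 278, 288, 312 and 319 CPM, so the groups lay on top of each other. Refed control libraries had 406, 375, 339.8 and 312 CPM and refed LKO libraries 317, 259, 288 and 265 CPM. The refed groups overlapped only through S51 and S52. The refed difference was small, -0.34 (SE 0.10, edgeR adjusted p = 0.0573), a mean of 78.8% of control. It was called by DESeq2 (adjusted p = 0.0162), with genes kept at a mean of at least 5 CPM (0.0478), without S51 (0.0343) and without S52 (0.0426). In control livers the refed mean was 120.0% of the fasted mean (log2 0.26, SE 0.10, edgeR adjusted p = 0.0745), called by DESeq2 (0.0438) and without S51 (log2 0.33, adjusted p = 0.0339). In LKO livers the change was -0.09 (SE 0.10, edgeR adjusted p = 0.588), and the interaction was -0.35 (SE 0.14, edgeR adjusted p = 0.204).

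Much of the variation in the inducible genes lay between libraries of the same group. The SD of log2 CPM within groups was 1.5 for Lcn2, 1.27 for Saa2, 1.24 for Saa1 and 1.0 for Orm2, at or above the 98.8th percentile of all genes tested, whose median was 0.23. It was 0.62 for Saa3, 0.47 for Saa4, 0.37 for Orm1, 0.29 for Hpx, 0.20 for Hp and 0.13 for Crp, the last at the 17.1th percentile. The libraries at the extremes were the same for many members. S41 was the lowest of its group for 8 of the 10 genes, S46 for 8, S49 for 9 and S53 for 6, while S51 was the highest for 7 and S43, S45, S47 and S54 for 5 each. In S46, Lcn2 deviated from its group mean by -2.7 on the log2 scale, and Saa1 and Saa2 each by -2.37. In S49, Saa2 deviated by -2.44, Saa1 by -2.32 and Lcn2 by -1.8. In S49 the deviation was -0.07 for Saa4 and 0.07 for Crp.

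**Figure D3:**
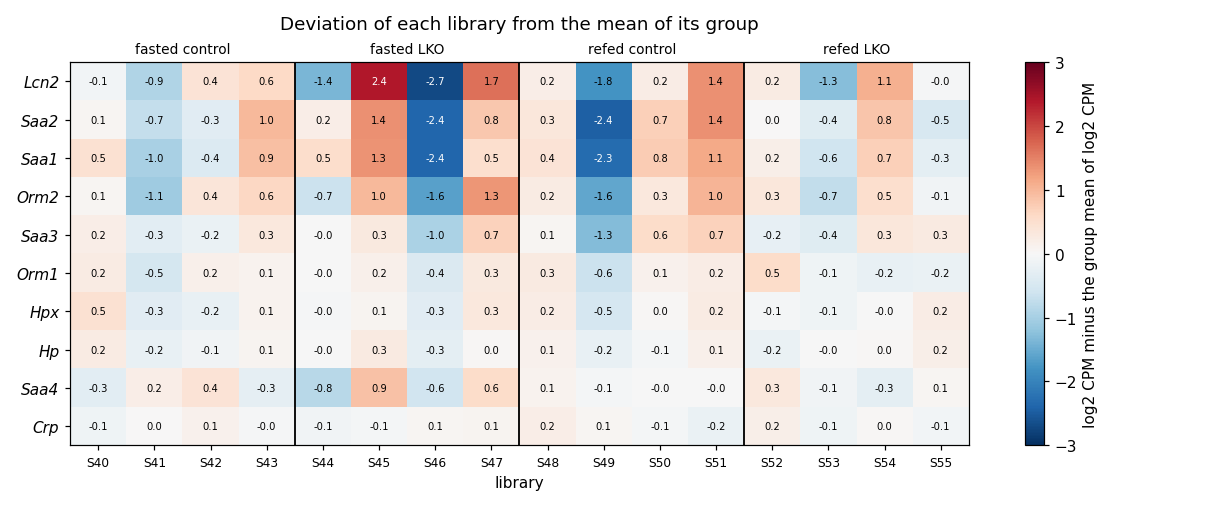
Deviation of log2 CPM in each library from the mean of its group, for each acute phase gene (rows) and library (columns, separated by group); red is above and blue below the group mean. S46 and S49 are blue from Lcn2 to Hp, most strongly for Lcn2, Saa2, Saa1 and Orm2, while the row of Crp stays near 0.

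Library S49 also stood apart in markers of macrophages, with and without the most abundant of them, Cd5l (299 CPM in S49). The summed level of the 14 macrophage markers was 996 CPM in S49, against 327 to 632 CPM in the other refed control libraries and 315 to 454 CPM in refed LKO libraries. Without Cd5l it was 697 CPM in S49, and at most 440.0 CPM in the other refed libraries. In S46, the other library with low values, the sum was 400.4 CPM, within the 374 to 602 CPM of fasted controls. In refed LKO livers 12 of the 14 markers were fitted below 0, with a median of -0.50, beside 52.2% and -0.01 over all genes. None was called by edgeR, DESeq2 or limma-voom, beside 3.63%, 5.54% and 3.56% of all genes. At an unadjusted p under 0.05 there were 5, beside 18.4% of all genes. Without the refed control library S51, edgeR called 3. In fasted LKO livers none was called by any of the 3 tools, with 0 at an unadjusted p under 0.05, beside 26.7% of all genes. The part of these cells in the acute phase values was not tested.

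The genes whose profile over the 16 libraries was most like that of a member were named by Pearson's r of log2 CPM among 8884 protein-coding genes, as a description. These points share libraries and their depth. For Saa2 the 3 highest outside the group were Mroh1 (r = 0.82), Wwtr1 (0.81) and Baz2b (0.80), below the values with the members Saa1 (0.97), Orm2 (0.89) and Lcn2 (0.88). For Orm2 they were Cd36 (0.93), Wwtr1 (0.85) and Mogat1 (0.83), with 0.94 for the member Lcn2. For Hp they were Zfp553 (0.84), Lrg1 (0.82) and Map3k10 (0.80), with 0.88 for Hpx. The same measure was added for 3 further genes after values were seen. Saa4 was most like Akr1c6 (0.96), Nars2 (0.96) and AI182371 (0.96), Lcn2 most like Serpina3n (0.90), Tafa5 (0.88) and C4b (0.88), and Crp most like Fermt2 (0.83), Mrtfb (0.82) and Slc15a4 (0.81). Saa4 and Crp had r of 0.35 with each other and from -0.19 to 0.55 with the other members over the 16 libraries. After each group's mean was removed, Saa4 had higher values with Lcn2 (0.65, from 0.44) and Orm2 (0.52, from 0.24). Those of Crp then ran from -0.46 with Hp to 0.32 with Saa4.

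The cytokines that start the response were scarce in these livers. Il6 had 8 counts in all 16 libraries together and was at 0 in 12 of them, Il11 had 9, Osm 10 and Lif 36, too few to be tested. Of the listed cytokines 3 were tested, Il1a, Il1b and Tnf, with means of 2.21, 1.70 and 0.482 CPM. None of the 3 was called in any of the 5 tests by edgeR, DESeq2 or limma-voom, with 0 at an unadjusted p under 0.05. Their fitted changes were above 0 for 3 of 3 in fasted LKO and below 0 for 3 of 3 in refed LKO livers, with edgeR adjusted p-values of 0.261 to 0.842 and 0.687 to 0.962.

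By edgeR, 1 of 21 receptors and signal transducers rose and 1 fell in fasted LKO livers. That share is smaller than the 12.2% of all genes called by edgeR. DESeq2 called 1 higher and 4 lower, beside 14% of all genes, and limma-voom 1 higher and 0 lower, beside 12.5%. At an unadjusted p under 0.05 there were 9 of the 21, beside 26.7% of all genes. With a library left out, the number called by edgeR ran from 0 (without S41, S42 or S44) to 3. Il6st, which encodes gp130, rose from 82.0 ± 2.40 to 103 ± 12.1 CPM (log2 0.34, SE 0.10, edgeR adjusted p = 0.0409). Cebpb, a C/EBP factor of the acute phase, fell from 379 ± 123 to 224 ± 46.3 CPM (log2 -0.76, SE 0.24, edgeR adjusted p = 0.0481), a call that limma-voom did not make. The interleukin-6 receptor gene Il6ra was at -0.85 and the interleukin-1 receptor gene Il1r1 at -0.98. Neither was called by edgeR (adjusted p = 0.0705 and 0.0571), and both were called by DESeq2 (adjusted p = 0.0276 and 0.0163). Their fasted control values spread widely, at 53.9 ± 24.6 CPM for Il6ra and 31.6 ± 20.4 CPM for Il1r1. Fasted LKO livers had 29.8 ± 8.95 and 16.0 ± 2.44 CPM. In refed LKO livers 0 of the 21 were called by edgeR, DESeq2 or limma-voom, beside 3.63%, 5.54% and 3.56% of all genes. At an unadjusted p under 0.05 there were 5, beside 18.4% of all genes, and the median was -0.08, beside -0.01 over all genes. In control livers refeeding lowered 7 of the 21 and raised 2, beside 7.65% of all genes lower and 7.79% higher. The lowered ones included Stat3 (log2 -0.44, edgeR adjusted p = 0.0266), Cebpb (-0.86, 0.0228) and Tnfrsf1a (-0.54, 0.000948). In LKO livers refeeding lowered 3, Il6st, Tnfrsf1a and Myd88, and raised 1, Il1rap, beside 18.1% of all genes called by edgeR. DESeq2 called 3 lower and 3 higher there, beside 17.7% of all genes. Without S50 the number called in control refeeding was 5, and in LKO refeeding it was 2 without S44 or S52.

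Several feedback inhibitors and early targets of STAT3 and NF-kB fell on refeeding in both genotypes. In control livers 8 of 14 fell and 0 rose, beside 7.65% of all genes lower and 7.79% higher. The median was -0.92, beside 0.01 over all genes, and 9 had an unadjusted p under 0.05, beside 30% of all genes. The number called was 5 without S43 or without S48. The feedback inhibitor Socs3 fell from 18.2 ± 7.76 to 8.12 ± 3.68 CPM (log2 -1.17, SE 0.28, edgeR adjusted p = 0.0115), and the early response gene Junb from 80.0 ± 31.0 to 22.7 ± 7.19 CPM (log2 -1.81, SE 0.26, edgeR adjusted p = 0.00065). In LKO livers 4 of 14 fell (Socs2, Socs3, Il1rn and Junb) and 0 rose, beside 8.78% of all genes lower and 9.28% higher. Junb was at -1.54, and 5 of the 14 had an unadjusted p under 0.05, beside 31% of all genes. The number called was 2 without S44, S52 or S54. Between genotypes, Bcl3 was the 1 gene of the 14 that edgeR called in the fasted state (log2 -0.52, adjusted p = 0.028), beside 12.2% of all genes, and DESeq2 also called Il1rn, which was higher (log2 0.90, adjusted p = 0.0403). Socs1 was the 1 gene called in the refed state (log2 1.40, edgeR adjusted p = 0.0179), beside 3.63% of all genes. It was at 0.420 CPM in control and 1.15 CPM in LKO livers. Bcl3 was not called without S40, S43, S44 or S46, nor Socs1 without S48.

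Of 27 other positive acute phase genes tested, 6 fell and 0 rose in fasted LKO livers, beside 6.48% of all genes lower and 5.75% higher. The fitted change was below 0 for 23, with a median of -0.32, beside 47.5% and 0.02 over all genes. DESeq2 and limma-voom each called 7 lower, beside 14% and 12.5% of all genes called in either direction. The count depended on single libraries, with 1 called without S40, S43 or S44, 2 without S42 or S46, and 10 without S45. All 3 fibrinogen chain genes fell, Fga by 0.57 (edgeR adjusted p = 0.0373), Fgb by 0.51 (0.0236) and Fgg by 0.54 (0.0219). The complement gene C4b fell by 0.57 (edgeR adjusted p = 0.039), the antitrypsin gene Serpina1b by 0.32 (0.0476) and the metalloreductase gene Steap4 by 1.01 (0.00989). Of these 6, Steap4 was called in 15 of 15 alternatives and the other genes in 6 to 10. In refed LKO livers 24 of 27 were below 0, with a median of -0.24, beside 52.2% and -0.01 over all genes. The complement gene C3 was the 1 called, lower (log2 -0.38, edgeR adjusted p = 0.0498), beside 1.35% of all genes lower. C3 was not called once any 1 library was left out. On refeeding, control livers had 5 of the 27 lower and 1 higher, beside 7.65% of all genes lower and 7.79% higher. The metal-binding metallothioneins Mt1 (log2 -3.46) and Mt2 (-3.72) fell, as did the endotoxin-binding protein gene Lbp (-0.95). In LKO livers 3 fell (Lbp, Mt1 and Mt2), and Steap4 rose by 1.22 (edgeR adjusted p = 0.00178), beside 18.1% of all genes called. DESeq2 called 4 lower and 1 higher there, and limma-voom 3 lower and 2 higher, beside 17.7% and 18.3% of all genes.

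**Figure D4:**
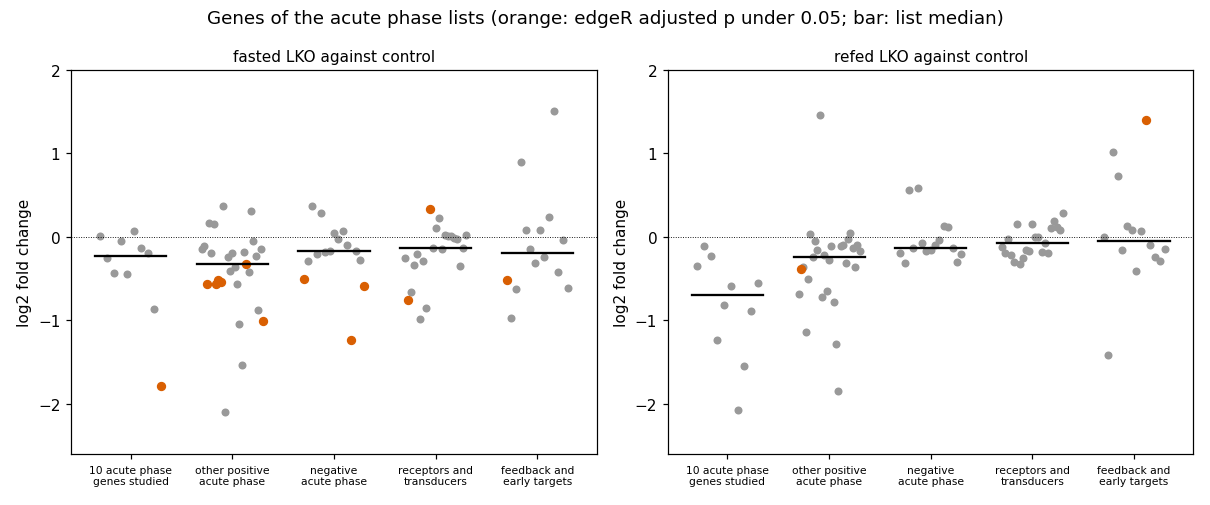
Log2 fold change of each tested gene of 5 acute phase lists in fasted (left) and refed (right) LKO against control livers; points are genes, orange marks an edgeR adjusted p under 0.05 and the bar is the list median. The medians of the 10 genes are -0.22 fasted and -0.70 refed, and those of the other positive genes -0.32 and -0.24.

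Some negative acute phase genes also had lower RNA in fasted LKO livers. Of 15 tested, 3 fell and 0 rose, beside 6.48% of all genes lower and 5.75% higher. These were Ttr, for transthyretin (log2 -0.59, edgeR adjusted p = 0.0181), Ahsg, for fetuin-A (-0.50, 0.00908), and Serpina6, for corticosteroid-binding globulin (-1.23, 0.000797). At an unadjusted p under 0.05 there were 8 of the 15, beside 26.7% of all genes. The fitted change was below 0 for 11 and above 0 for 4, beside 47.5% of all genes below 0. Apoa1, not called, had a mean of 14270 CPM in fasted LKO and 11050 CPM in fasted control livers. Alb was at -0.29 and was not called (edgeR adjusted p = 0.135). Serpina6 had a fasted mean of 261 ± 16.7 CPM in control and 111 ± 42.9 CPM in LKO livers, and a refed mean of 318 ± 37.8 and 345 ± 40.4 CPM (SD, n = 4). It rose on refeeding in LKO livers (log2 1.64, edgeR adjusted p = 5.42e-05), and its interaction was called (1.35, SE 0.26, edgeR adjusted p = 0.0337), beside 1.23 for Saa4, whose interaction was not. The interaction of Serpina6 was called in 9 of 22 alternatives (adjusted p 0.000194 to 0.0815), among the left-out libraries only without S45, S47 or S49. In refed LKO livers edgeR called 0 of 15 negative genes, DESeq2 1, which was higher, and limma-voom 0, beside 3.63%, 5.54% and 3.56% of all genes. At an unadjusted p under 0.05 there were 3, beside 18.4% of all genes. Apoa1 was at 0.57 there (SE 0.16, edgeR adjusted p = 0.0603), and 11 of the 15 were fitted below 0, beside 52.2% of all genes. Refeeding control livers lowered 1, the coagulation factor gene F12 (log2 -0.25, edgeR adjusted p = 0.0346), beside 7.65% of all genes lower. With a library left out, F12 was called only without S41.

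Among 11 tested genes for receptors and partners of the proteins, 2 fell in fasted LKO livers, beside 6.48% of all genes lower. At an unadjusted p under 0.05 there were only these 2, a smaller share than the 26.7% of all genes. Lrp1, the receptor for hemopexin with heme, fell from 989 ± 63.6 to 614 ± 89.2 CPM (log2 -0.69, SE 0.10, edgeR adjusted p = 0.000465). Scarb1, the receptor for high-density lipoprotein, on which serum amyloid A travels, fell from 278 ± 27.1 to 202 ± 21.4 CPM (log2 -0.46, SE 0.10, edgeR adjusted p = 0.00652). Both were called in 15 of 15 alternatives. In refed LKO livers edgeR called 0 of 11, DESeq2 1 and limma-voom 0, beside 3.63%, 5.54% and 3.56% of all genes. At an unadjusted p under 0.05 there were 5, beside 18.4% of all genes, and Lrp1 was at -0.33 (edgeR adjusted p = 0.0655). Lrp1 and Scarb1 also fell on refeeding in control livers, by 0.46 and 0.56 on the log2 scale, beside 7.65% of all genes lower. Hmox1, the heme-degrading enzyme, fell on refeeding in LKO livers (log2 -0.90, edgeR adjusted p = 0.0103). The haptoglobin receptor gene Cd163 was called by edgeR in no comparison.

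Single markers of other cells differed with genotype. The summed lymphocyte and plasma cell markers were 17.3 to 36.6 CPM in fasted LKO against 6.42 to 12.4 CPM in fasted control livers, and 18.8 to 41.7 against 5.33 to 8.23 CPM in the refed groups. Of 8 tested, edgeR called 1 in each state, Jchain, which encodes the joining chain of secreted antibodies and was higher in LKO livers. Over all genes, 5.75% were called higher in the fasted and 2.28% in the refed state. Jchain alone ran from 7.89 to 27.4 CPM in fasted LKO and 0.927 to 3.15 CPM in fasted control livers, and the other 9 markers together overlapped, at 6.33 to 9.38 and 5.37 to 10.6 CPM. In the refed groups Jchain was at 12.3 to 31.6 CPM in LKO and 0.796 to 2.23 CPM in control livers, and the other 9 at 6.498 to 10.01 and 4.54 to 6.00 CPM, which did not overlap. DESeq2 also called Cd4 lower in fasted LKO livers (log2 -1.11, adjusted p = 0.0419) and Cd8a higher in refed LKO livers (2.13, adjusted p = 0.0359). The summed adipocyte markers were 216 to 397 CPM in fasted LKO and 132 to 209 CPM in fasted control livers, with Cidec higher and Cfd and Adrb3 lower. The direction of that sum rested on Cidec, at 151 to 354 CPM in LKO and 36.8 to 81.7 CPM in control livers. Without Cidec the other 8 markers summed to 25.0 to 99.6 CPM in LKO against 95.3 to 140.0 CPM in control livers, ranges that overlapped in 1 LKO library. In the refed groups the sums overlapped, at 84.1 to 131 CPM in LKO and 46.2 to 194 CPM in control livers. Without Cidec they were 19.4 to 24.3 and 37.9 to 111 CPM. Of the 5 tested there, 3 were fitted above 0. The 1 called by edgeR, Plin4, was lower (log2 -1.83, adjusted p = 0.0109, called in 15 of 15 alternatives), beside 1.35% of all genes lower. The defining genes Adipoq, Lep and Plin1 had 17, 4 and 29 counts in all libraries together. Neutrophil markers, which include genes of cells that store Lcn2, summed to 1.83 to 9.93 CPM over all libraries, and 0 of the 2 tested were called by edgeR, DESeq2 or limma-voom in any comparison, with 0 at an unadjusted p under 0.05. Of the 10 stellate and endothelial markers 0 were called by those tools in fasted LKO livers. At an unadjusted p under 0.05 there were 2, beside 26.7% of all genes. In refed LKO livers edgeR called 1 (Clec4g, higher), beside 2.28% of all genes higher. With a library left out, Clec4g was called only without S50 or S52. The part of these cells in the acute phase values was not tested.

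The signs of log2 fold changes in the authors' deposited table were turned here to LKO over control and refed over fasted. For refed LKO against control, the authors' deposited table lists adjusted p-values of 0.00126 for Saa4, 0.00679 for Orm1, 0.0423 for Saa1 and 0.0478 for Crp, with log2 fold changes of -0.55, -0.81, -2.07 and -0.34. For fasted LKO against control it lists 0.000841 for Saa4 and 0.0296 for Saa3, with log2 fold changes of -1.79 and -0.86 in the authors' deposited table. For LKO refed against fasted, the authors' deposited table has Saa4 alone under 0.05 (log2 1.31, adjusted p = 0.0147), and for refed against fasted controls it has none of the 10, the lowest being Crp at 0.077.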

How the data were processed

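Bulk liver RNA was sequenced in 16 libraries. Per the labels' protocols, messenger RNA was selected on poly-T beads and libraries were made with random hexamers and dUTP. The submitters' processing notes name HISAT2 2.0.5 and build mm39; the counting tool, its use of strand and the annotation are not given in the sources used here, so reads of overlapping antisense genes cannot be told apart. Gene counts, not normalized, were deposited by the authors in 4 tables, each with 8 libraries, and their own log2 fold changes and p-values, for which no tool is given per the file headers. A shared group heading of 2 tables gave each library its group. The tables were joined on gene identifier; 0 counts differed between tables, and 3148 genes absent from the tables of a library were set to 0 there. Another 64 columns holding values of single libraries were left out.

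Counts were fitted with edgeR 4.0.16 in R 4.3.3 (filterByExpr, TMM factors 0.941 to 1.07, glmQLFit with the 4 groups as one factor, glmQLFTest, Benjamini-Hochberg adjustment over 14488 genes), after a test on simulated data. The SE is the log2 fold change divided by the square root of F. Alternatives were DESeq2 1.42.0, limma-voom (limma 3.58.1), DESeq2 size factors, upper quartile scaling, no filter, a mean of at least 5 CPM, only the groups compared, and each library left out. Similarity of profiles used log2 CPM with a prior count of 2. Motifs were read in RefSeq windows of GRCm38.p6 and sequences aligned with Biopython 1.88. Genes named are the 10 members, Cpt1a, members of 13 lists and the most similar profiles. Members and lists were chosen with earlier results of these data known, and list genes named were picked with their values seen.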

Additional observations from a re-analysis of the deposited data

Results flagged for a closer look

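Among the 40 sets of 4 libraries (10 genes in 4 groups), 1 library lay far from the other 3 of its group. Orm1 in refed LKO library S52 was at 425.0 CPM, while the other 3 libraries were at 249 to 269 CPM, and the gap was 0.887 of the range, above Dixon's critical value for 4 values. Chance marks about 1 in 20 such sets. Without S52 the refed Orm1 difference was -1.03 with an edgeR adjusted p of 0.0207, in place of -0.82 and 0.0557.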

How the results depend on the processing

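Saa4 was called in fasted LKO against control and in LKO refed against fasted in every alternative run, with log2 fold changes of -2.12 to -1.56 and 1.07 to 1.64. The count of the 10 genes called in refed LKO against control was 0, and it became 1 with no filter, 1 with a mean of at least 5 CPM, 2 with DESeq2, 1 with only the groups compared, and 0 to 3 with a library left out (S49, S51 and S52 gave calls). DESeq2 gave 1 in control refed against fasted and 1 for the interaction, in place of 0. With a library left out these counts ran from 0 to 1 (S51; S45), and in LKO refed against fasted from 1 to 2 (S46). Changes near 0 turned sign. With limma-voom, Orm2 in fasted LKO was -0.262, Saa3 in control refeeding -0.0705, and the interactions of Saa3 and Lcn2 were 0.235 and 0.0947. With no filter, Crp in fasted LKO was -8.28e-05. With a library left out, the fasted LKO differences ran from -0.602 to 0.229 for Saa1, -0.675 to 0.238 for Saa2, -0.414 to 0.395 for Orm2, -0.925 to 0.345 for Lcn2 and -0.0328 to 0.045 for Crp. Control refeeding ran from -0.497 to 0.404 for Saa2, -0.119 to 0.377 for Saa3, -0.0393 to 0.21 for Saa4, -0.0541 to 0.262 for Orm1 and -0.564 to 0.122 for Orm2. LKO refeeding ran from -0.174 to 0.31 for Saa3, -0.138 to 0.0615 for Hp and -0.127 to 0.0921 for Hpx, and the interaction of Saa3 from -0.315 to 0.216. The cause was not tested. Other scalings (DESeq2 size factors, upper quartile) changed no call and no sign of the 10 genes. For the other lists in fasted LKO livers, the number called with a library left out ran from 1 to 10 for the other positive genes, 2 to 4 for the negative genes, 0 to 3 for receptors and signal transducers, and stayed at 2 for the receptors and partners. No paired analysis was possible because the count columns carry no replicate number.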
